A study of Mus musculus with 9 samples.

Results

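The CDC2-like kinases (CLKs) are 4 related nuclear protein kinases encoded by Clk1, Clk2, Clk3 and Clk4. All 4 genes were found by symbol among the 20189 genes of the count table, and all 4 entered the tests, which ran over the 20143 genes with at least 1 count. Their transcripts were measured by poly(A) mRNA sequencing in E14 cells, a line of mouse embryonic stem (ES) cells, after acute withdrawal of a single amino acid (AA). The comparison asks how the transcriptome of ES cells answers the loss of Thr or of Cys, since ES cells need both AAs for more than protein synthesis. There were 9 libraries in 3 groups of 3, namely cells starved of Thr for 3 h, cells starved of Cys for 3 h, and unstarved cells in medium with every AA. All 9 were wild type, grew on gelatin and received LIF, the cytokine that holds ES cells in the pluripotent state. E14 is 1 cell line, and the labels do not say that the replicates came from separate cultures, so the p-values measure only the spread between these samples, which may be technical.

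CLKs phosphorylate the serine- and arginine-rich (RS) domains of SR proteins, the RNA-binding factors that help to define exons. Hyperphosphorylation by CLKs releases SR proteins from nuclear speckles, where they are stored, and makes them available for splicing. The kinases also regulate themselves through splicing, because a large part of the Clk1 and Clk4 transcripts is kept in the nucleus with unspliced introns or skips an exon that the active kinase needs. Stress and changes in CLK activity are known to move this pool toward the full-length mRNA.

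The gene models show how much intronic sequence a count per CLK gene can hold. On GRCm38, in the GENCODE M21 annotation, Clk1 (ENSMUSG00000026034) lies on the minus strand at chr1:58410189-58424066, Clk2 (ENSMUSG00000068917) on the plus strand at chr3:89164795-89176921, Clk3 (ENSMUSG00000032316) on the minus strand at chr9:57750624-57765860, and Clk4 (ENSMUSG00000020385) on the plus strand at chr11:51261730-51281766. In each gene the coding model with the most exons has 13. Retained introns were annotated in 7 of the 13 Clk1 transcripts, 4 of the 11 Clk2 transcripts, 4 of the 9 Clk3 transcripts and 7 of the 14 Clk4 transcripts. Bases that are exonic only in a transcript with a retained intron made up 63.8% of the exonic bases of Clk1, 54.8% of Clk2, 58.4% of Clk3 and 59.8% of Clk4. A gene-level count therefore does not separate spliced from intron-retaining transcripts of any of the 4 genes.

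Sequence shared with other genes was checked on the longest coding transcript of each CLK gene, and the retained introns were not checked. Of the 43-base stretches of that transcript, 43 bases being the read length, 0 of 1754 for Clk1, 0 of 2112 for Clk2 and 0 of 1907 for Clk4 occurred in a transcript of any other gene. Clk1 and Clk4 are the closest pair in the family by descent, and no such stretch was common to them. Clk3 is different, because 494 of its 2454 stretches (20.1%) were shared, 468 of them with Edc3, a decapping cofactor that ends on the opposite strand and covers 1284 (15.2%) of the exonic bases of Clk3. Whether counting used the strand is not given in the sources used here, so reads in that overlap cannot be assigned with certainty. The small RNA gene Gm25082 lies inside Clk4 on the same strand and covers 59 (1.02%) of its exonic bases.

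RefSeq promoter sequences were available for Clk2, Clk3 and Clk4, and are shown because these genes were all more abundant after Thr starvation. Each run holds the 250 bases before the RefSeq transcription start (GRCm38.p6), 5′ to 3′ in the direction of the gene. Capitals mark TGACG, the half-site of the cAMP response element (CRE), on either strand, and the full element TGACGTCA where it occurs.
Clk2, chr3:89164545-89164794, plus strand: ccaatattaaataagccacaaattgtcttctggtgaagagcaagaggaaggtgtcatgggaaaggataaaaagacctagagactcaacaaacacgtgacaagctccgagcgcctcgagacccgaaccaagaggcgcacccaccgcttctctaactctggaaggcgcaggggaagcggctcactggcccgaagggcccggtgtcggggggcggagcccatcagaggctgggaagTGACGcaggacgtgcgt
Clk3, chr9:57765115-57765364, minus strand: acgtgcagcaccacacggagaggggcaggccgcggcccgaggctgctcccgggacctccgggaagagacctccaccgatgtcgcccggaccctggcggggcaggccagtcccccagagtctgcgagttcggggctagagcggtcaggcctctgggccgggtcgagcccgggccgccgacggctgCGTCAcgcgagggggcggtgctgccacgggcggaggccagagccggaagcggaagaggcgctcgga
Clk4, chr11:51262864-51263113, plus strand: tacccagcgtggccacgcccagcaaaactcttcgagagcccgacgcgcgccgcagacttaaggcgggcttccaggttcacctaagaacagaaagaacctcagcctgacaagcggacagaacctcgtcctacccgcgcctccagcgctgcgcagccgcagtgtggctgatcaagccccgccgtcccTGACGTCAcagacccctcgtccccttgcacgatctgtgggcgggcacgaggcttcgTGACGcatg
All 3 windows held TGACG, which 17.8% of the 32851 promoters of the same length hold. The full TGACGTCA, which contains the half-site on both strands, was present in Clk4 alone of the 3, at position −65 from the start, against 1.55% of all promoters. Clk4 had a further half-site at −9, Clk2 had one at −17 and Clk3 one at −66 on the opposite strand. Clk2 also held the E-box CACGTG at −159, which 6.02% of promoters hold. The AP-1 site TGANTCA (6.75% of promoters), the core of the AA response element TGATGNAA (3.45%) and the heat shock core GAANNTTC (6.69%) had no match in the 3 windows on either strand. The Clk3 and Clk4 windows lie within the GENCODE spans given above, since GENCODE has transcripts that start further upstream. The Clk4 window also holds the 5′ end of BC049762, a coding gene on the opposite strand (chr11:51253651-51263046) that was not among the genes tested. Motif matches in this window therefore cannot be assigned to Clk4 alone. These matches are letters in a window, and no binding was measured.

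The libraries held 48763102 to 74962733 counts, and the CLK genes were well covered in each, from 1446 counts for Clk3 to 12397 for Clk1. Levels are given as CPM, which puts the counts of every library on 1 scale, with library sizes adjusted by TMM. The cells matched their label, as all 8 pluripotency markers, among them Pou5f1 and Nanog, exceeded 5 CPM in every library and summed to 3730 to 4220 CPM. Markers of other cells were low by comparison, with sums of 8.93 to 13.8 CPM for fibroblasts (3 of 4 markers listed in the table), 64.7 to 78.9 CPM for neuroectoderm, 1.24 to 4.51 CPM for mesoderm (2 of 3 listed) and 2.76 to 4.61 CPM for endoderm. The neuroectoderm sum was mostly Nes. The mean of this sum was 65.4 CPM in unstarved, 77.0 CPM in Thr-starved and 76.6 CPM in Cys-starved libraries. In the same order, Nes averaged 49.5, 53.3 and 55.3 CPM, Sox1 8.37, 15.4 and 12.0 CPM, and Pax6 7.53, 8.24 and 9.34 CPM. The part of these markers in the CLK results was not tested.

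All 4 CLK transcripts were more abundant after Thr starvation than in unstarved cells, from 1.17-fold for Clk2 to 2.44-fold for Clk4. After Cys starvation only Clk1 passed the test, at 1.16-fold. For each of the 4 genes no Thr-starved library was as low as an unstarved one. Both comparisons use the same 3 unstarved libraries and are not independent. In bulk RNA, a change in the mix of cells and a change in RNA per cell cannot be told apart.

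**Figure D1:**
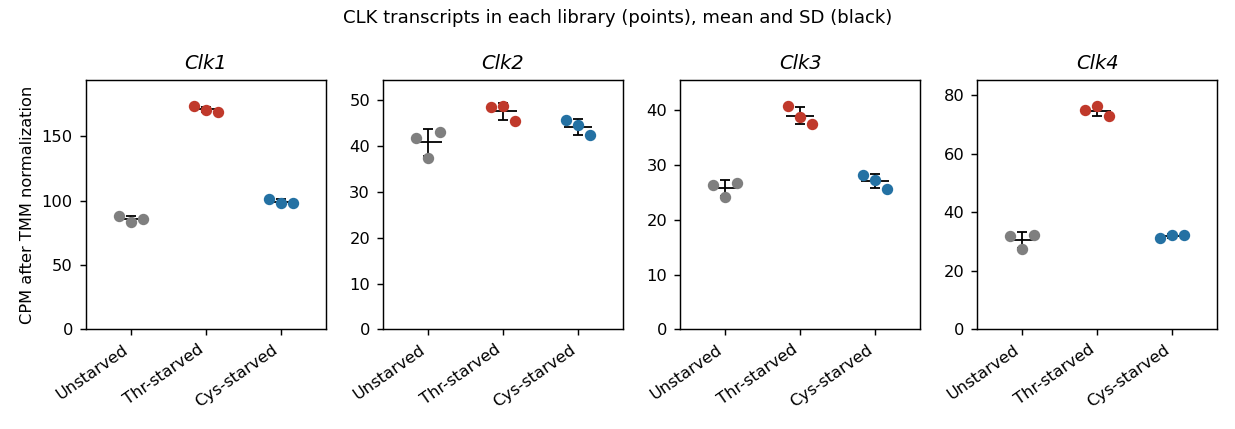
Level of each CLK transcript in CPM (vertical axis, linear, starting at 0) in the 3 unstarved, 3 Thr-starved and 3 Cys-starved libraries (points), with the mean and SD in black. The Thr-starved points lie above all unstarved points in each panel, and for Clk4 they span 72.97 to 76.2 CPM against 27.6 to 32.42 CPM.

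Clk4 had the largest relative increase of the family. It was measured at 31.8, 27.6 and 32.4 CPM in the unstarved libraries, at 75.1, 76.2 and 73.0 CPM after Thr starvation, and at 31.2, 32.4 and 32.2 CPM after Cys starvation. Every Thr-starved library was more than double any unstarved or Cys-starved one, whereas the Cys-starved values fell inside the unstarved range or at its upper edge. The means were 30.6 ± 2.63 (SD, n = 3), 74.7 ± 1.64 and 32.0 ± 0.663 CPM. With edgeR's quasi-likelihood test and Benjamini-Hochberg adjustment, the log2 fold change of Clk4 under Thr starvation was 1.29 (SE 0.046, adjusted p = 1.1e-16). Of all genes tested, 727 (3.61%) had an estimated increase at least as large, called or not. Of these, 178 were among the 11410 genes that averaged 5 CPM or more. For Cys starvation the log2 difference was 0.06 (SE 0.048, adjusted p = 0.34).

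Clk1, the founding member of the family and its most abundant transcript here, doubled under Thr starvation. Its levels were 88.0, 83.0 and 85.5 CPM in unstarved, 173, 170 and 169 CPM in Thr-starved and 101, 97.8 and 97.8 CPM in Cys-starved libraries. The 3 groups did not overlap, with Cys-starved libraries a little above the unstarved ones and Thr-starved libraries far above both. Means were 85.5 ± 2.50, 171 ± 2.09 and 98.9 ± 1.95 CPM (SD, n = 3). The log2 fold change was 1.00 (SE 0.028, adjusted p = 1.7e-18) for Thr starvation, a change that 1340 genes (6.65%) matched or exceeded, 417 of them averaging 5 CPM or more. It was 0.21 (SE 0.028, adjusted p = 3.0e-06) for Cys starvation. There 4826 genes (24.0%) had an estimate at least as high, called or not, 1646 of them averaging 5 CPM or more.

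Clk3 lay between Clk1 and Clk2 in its response to Thr starvation. It measured 26.5, 24.2 and 26.8 CPM in unstarved cells, 40.7, 38.8 and 37.6 CPM after Thr starvation, and 28.2, 27.3 and 25.7 CPM after Cys starvation. The Thr-starved libraries stood apart, while the Cys-starved libraries overlapped the unstarved ones. The means were 25.8 ± 1.44, 39.0 ± 1.59 and 27.1 ± 1.27 CPM (SD, n = 3), and the Thr change was 0.60 (log2, SE 0.048, adjusted p = 2.2e-10, 1.51-fold). An estimate of that size or more, called or not, was found for 3087 genes (15.3%), 1340 of them averaging 5 CPM or more. The log2 difference for Cys starvation was 0.07 (SE 0.049, adjusted p = 0.30). Edc3, whose 3′ end overlaps Clk3, rose by 0.52 (SE 0.031, adjusted p = 9.2e-13) under Thr starvation and fell by 0.08 (SE 0.031, adjusted p = 0.038) under Cys starvation on the same scale. Its part in the Clk3 count was not tested.

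Clk2, the member with the highest GC content, changed least under Thr starvation. Its values were 41.7, 37.5 and 43.2 CPM in unstarved, 48.6, 48.7 and 45.5 CPM in Thr-starved, and 45.8, 44.6 and 42.4 CPM in Cys-starved libraries. The lowest Thr-starved library was only just above the highest unstarved library, and the Cys-starved libraries overlapped both groups. The group means were 40.8 ± 2.97, 47.6 ± 1.79 and 44.3 ± 1.73 CPM (SD, n = 3). The log2 fold change of Clk2 under Thr starvation was 0.22 (SE 0.047, adjusted p = 0.00026). An estimate at least as high, called or not, was found for 6732 genes (33.4%), 3698 of them averaging 5 CPM or more. For Cys starvation the log2 difference of 0.12 missed the threshold (SE 0.046, adjusted p = 0.051). It passed in 6 of 20 alternative fits, 1 of them the fit without unstarved replicate 3 (0.16, adjusted p = 0.017), and was 0.06 without unstarved replicate 2.

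The unstarved library of replicate 2 gave the lowest unstarved value for each of the 4 genes. Without it the Thr changes were the smallest that leaving out a single library gave for each gene, at 0.98 for Clk1, 0.17 for Clk2, 0.56 for Clk3 and 1.22 for Clk4, and all 4 were still called. The largest such values were 1.02, 0.26, 0.62 and 1.33. The small Cys difference of Clk4 turned to −0.01 without it.

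Against all genes, the count of CLK genes that rose was 4 of 4 under Thr starvation, where 63.0% of the genes tested were called, 31.1% higher and 31.9% lower. Libraries that did not overlap, with Thr-starved libraries higher, were found for 4 of 4 CLK genes and for 32.6% of all genes. Under Cys starvation 1 of 4 CLK genes was called higher and did not overlap, where 36.3% of genes were called, 17.5% higher and 18.8% lower, and 23.0% did not overlap with the Cys-starved libraries higher. The single CLK gene called under Cys starvation is near that background. The median log2 fold change of the 4 genes was 0.80 for Thr and 0.09 for Cys starvation, beside −0.02 and 0.01 over all genes tested. When libraries were scaled by the size factors that the authors deposited instead of TMM, the share of higher genes among those called under Cys starvation went from 48.2% to 36.8%, and Clk1 was still called higher at 0.17 (adjusted p = 4.3e-05).

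**Figure D2:**
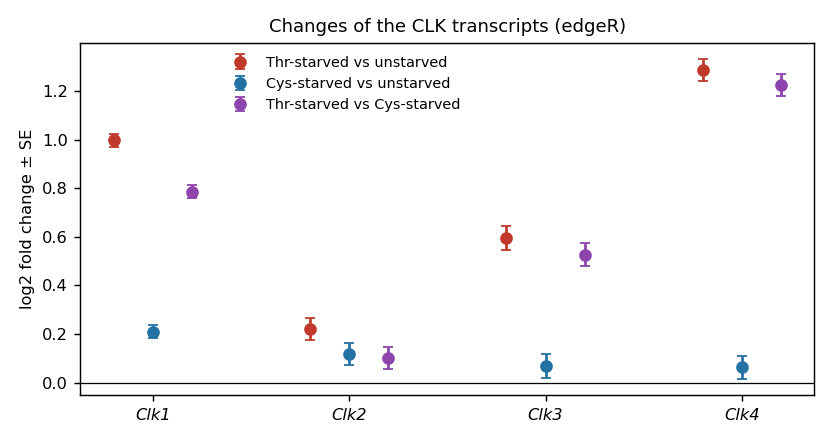
Log2 fold change of each CLK gene (points) with its SE (bars) from edgeR in the 3 comparisons. Thr starvation gave 1.00, 0.22, 0.60 and 1.29 for Clk1 to Clk4 against unstarved cells, whereas the Cys changes lay between 0.06 and 0.21.

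The difference between the starvations was tested directly by comparing Thr-starved with Cys-starved libraries. Clk1, Clk3 and Clk4 were higher after Thr starvation, by 0.79 (SE 0.028, adjusted p = 1.2e-16), 0.53 (SE 0.047, adjusted p = 1.7e-09) and 1.22 (SE 0.045, adjusted p = 3.0e-16) on the log2 scale, which are 1.73-fold, 1.44-fold and 2.34-fold. The libraries of the 2 groups did not overlap for these 3 genes, a pattern that 32.1% of all genes showed in this direction. In this comparison 62.0% of the genes were called, 30.4% higher and 31.6% lower. Clk2 differed by 0.10 (SE 0.046, adjusted p = 0.059), with overlapping libraries. This value was called in 12 of the 20 alternative fits, over which it ranged from 0.07 to 0.26.

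GC content moved with the response to Thr starvation and differs within the family. The longest transcripts of Clk1 and Clk4 are 39.2% and 38.8% GC, in the lowest of 10 equal GC classes of the genes averaging 5 CPM or more, whereas Clk3 (52.6%) and Clk2 (55.4%) fall in classes 7 and 9. The median Thr change fell from 0.24 in the lowest GC class to −0.25 in the highest, and the median Cys change from 0.05 to −0.03. With each library's trends in GC content and length removed, the Thr changes were 0.76 for Clk1, 0.37 for Clk2, 0.70 for Clk3 and 1.03 for Clk4, and all 4 were called (adjusted p from 1.7e-18 to 1.2e-07). The spread within the family was thus smaller on this scale, the difference between Thr and Cys starvation was called for Clk2 as well (0.26, adjusted p = 1.5e-05), and Clk1 under Cys starvation was still called at 0.13 (adjusted p = 0.00034).

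**Figure D3:**
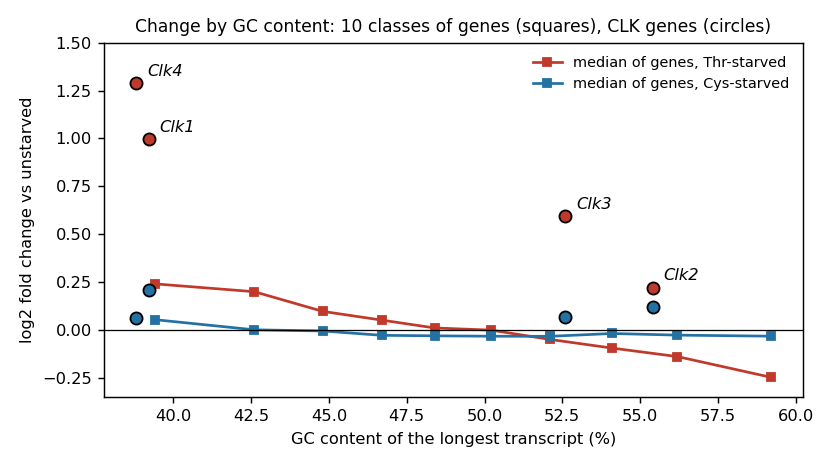
Log2 fold change against unstarved cells (vertical axis) by GC content of the longest transcript in percent (horizontal axis), as medians of 10 equal classes of the genes averaging 5 CPM or more (squares) and for the CLK genes (circles), in red for Thr and blue for Cys starvation. The 4 red circles lie above the red line, which runs from 0.24 down to −0.25.

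The make-up of the CLK pool was described per length of exon, since levels of different genes can be compared only in that way. In unstarved cells Clk1 was highest at 10.5 ± 0.308 CPM per kb of exon (SD, n = 3), then Clk2 at 7.70 ± 0.560, Clk4 at 5.28 ± 0.454 and Clk3 at 3.06 ± 0.170. After Thr starvation Clk4, at 12.9 ± 0.282 CPM per kb, had passed Clk2, at 8.98 ± 0.337, with Clk1 at 21.0 ± 0.257 and Clk3 at 4.62 ± 0.188. After Cys starvation the order was that of unstarved cells, with 12.2 ± 0.239 for Clk1, 8.35 ± 0.326 for Clk2, 5.51 ± 0.114 for Clk4 and 3.20 ± 0.150 for Clk3. Neighbours in these orders did not overlap between libraries, and the order held in each group with the length of the longest transcript or of the longest coding transcript in place of the exon union.

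Summed over the 4 genes, the CLK level was 26.6 ± 1.43 CPM per kb in unstarved, 47.5 ± 0.952 in Thr-starved and 29.2 ± 0.588 in Cys-starved libraries (SD, n = 3). Clk4 made up 19.9% of this sum in unstarved cells, 27.2% after Thr starvation and 18.9% after Cys starvation, while Clk2 made up 29.0%, 18.9% and 28.6%. The share of Clk1 was 39.6%, 44.2% and 41.6%, and that of Clk3 11.5%, 9.73% and 11%. These sums and shares are those of the exon union and depend on the length used. In the same order, the longest coding transcript, added after seeing the data, gave sums of 92.6, 171.1 and 102.9 CPM per kb. With that length Clk1 made up 51.4%, 55.5% and 53.5% of the sum, and Clk4 16.9%, 22.4% and 15.9%. Clk2 then made up 20.4% in unstarved and 12.9% in Thr-starved cells. The ratio of Clk4 to Clk2 CPM within a library was 0.736 to 0.763 in unstarved, 1.54 to 1.60 in Thr-starved and 0.681 to 0.760 in Cys-starved cells. The ratio of Clk1 to Clk4 CPM was 2.64 to 3.01 in unstarved, 2.23 to 2.32 in Thr-starved and 3.01 to 3.24 in Cys-starved cells, so the Thr-starved libraries were the lowest. These shares and ratios were not tested.

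**Figure D4:**
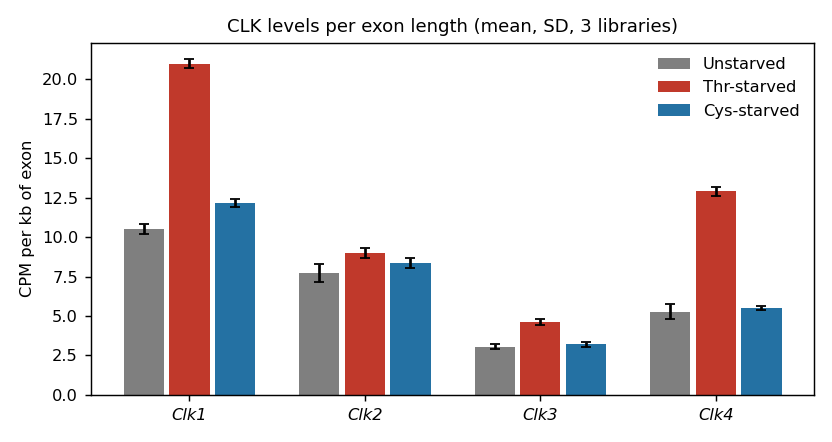
Level of each CLK gene in CPM per kb of exon (bars, mean; error bars, SD; 3 libraries each) in unstarved, Thr-starved and Cys-starved cells, on a linear axis from 0. Clk4 lies below Clk2 in unstarved cells (5.28 against 7.70) and above it after Thr starvation (12.9 against 8.98).

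Over the 9 libraries, the log2 levels of Clk1, Clk3 and Clk4 had a Pearson correlation of 0.98 in each pair, and Clk2 correlated with the others at 0.76 to 0.84. These 9 points come from 3 groups and share library depth and treatment, so the values mostly restate the difference between Thr-starved and other libraries. Among the 11406 other genes averaging 5 CPM or more, the profiles nearest to a CLK gene were found by the root mean square (RMS) difference of log2 levels centred on the unstarved mean. For Clk1 they were Lrpap1, Tra2b and Fam107b, with RMS differences of 0.033, 0.036 and 0.039. For Clk2 the nearest were Mob2 and Agtpbp1 (0.045 and 0.048), and for Clk3 they were Eif4a2, Zfp867 and Fam133b (0.045 to 0.049). For Clk4 they were Gm21887, Chic1 and Mid1-ps1 (0.055 to 0.073), of which Mid1-ps1 is named as a pseudogene and Gm21887 as a predicted gene, so their reads may be split with similar copies. With Pearson correlation as the measure, none of these was among the 3 nearest of Clk1, Clk2 or Clk3, and 1 of 3 was for Clk4.

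The substrates of the CLKs moved in both directions under Thr starvation. Of the 13 SR proteins and TRA2 factors, 9 rose, 3 fell and 1 did not pass the test, where 31.1% of all genes tested were called higher and 31.9% lower. Over the 20 alternative fits, 7 to 10 of them were called higher and 2 to 3 lower. The list median was 0.35 (log2), beside −0.02 over all genes. Tra2a and Tra2b, RS-domain splicing activators that CLKs phosphorylate, had changes of 1.55 (SE 0.022, adjusted p = 1.4e-23, from 228 to 667 CPM) and 1.02 (SE 0.021, adjusted p = 5.9e-21, from 358 to 726 CPM). Srsf3, among the smallest SR proteins, had the largest decrease, at −0.33 (SE 0.021, adjusted p = 2.9e-12). Under Cys starvation 4 rose, 4 fell and 5 did not pass, beside 17.5% higher and 18.8% lower over all genes, with Tra2b at 0.24 (adjusted p = 5.5e-09) and Srsf2, a classical SR protein, at −0.37 (adjusted p = 1.1e-10) as the called members furthest up and down among those with at least 5 CPM. Between the starvations 9 were higher and 2 lower after Thr starvation, beside 30.4% higher and 31.6% lower over all genes. Over the alternative fits these counts were 8 to 9 and 2 to 3.

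Of the 3 other kinases of SR proteins that were tested, 1 rose and 2 fell under Thr starvation. Over all genes 31.1% were called higher and 31.9% lower. SRPK1 and SRPK2 phosphorylate SR proteins mainly in the cytoplasm, and both transcripts fell under Thr starvation, Srpk1 with a change of −0.25 (log2, SE 0.026, adjusted p = 1.3e-08) and Srpk2 with one of −0.72 (SE 0.054, adjusted p = 7.2e-11). Prpf4b, a kinase of the tri-snRNP, rose by 0.20 (SE 0.025, adjusted p = 2.2e-07), a call that was lost with the GC and length trends removed. Under Cys starvation 17.5% of all genes were called higher and 18.8% lower. There Prpf4b was at −0.29 (adjusted p = 4.6e-09) and Srpk2 at −0.15 (adjusted p = 0.026), both called, while Srpk1 was at 0.05 (adjusted p = 0.14). The call of 1 of these decreases was lost in 4 of the 9 fits without a library, namely those without Cys-starved replicate 2 or 3 or unstarved replicate 2 or 3. Srpk3 was not in the table. Directly compared, Prpf4b was higher and Srpk1 and Srpk2 lower after Thr than after Cys starvation. In this comparison 30.4% of all genes were called higher and 31.6% lower.

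Among the 9 DYRK and HIPK kinases, the relatives of the CLKs in the CMGC group, 4 rose, 2 fell and 3 did not pass under Thr starvation, with a median of 0.00. These counts are near the shares of all genes, 31.1% higher and 31.9% lower. Hipk3 had the largest increase at 0.53 (adjusted p = 1.3e-09) and Dyrk2 the largest decrease at −0.91 (adjusted p = 8.8e-12). Under Cys starvation 2 rose, Dyrk1b most at 0.49 (adjusted p = 0.00019), 1 fell, Dyrk3 at −0.41 (adjusted p = 2.1e-09), and 6 did not pass, where 17.5% of all genes were higher and 18.8% lower. Without unstarved replicate 2, the number called higher under Cys starvation was 4. Dyrk3, which controls the dissolution of speckles and other condensates, was 0.20 higher under Thr starvation (adjusted p = 1.2e-05). Between the starvations 3 were higher and 4 lower after Thr starvation, near the 30.4% higher and 31.6% lower of all genes.

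Of 8 SR-related proteins of nuclear speckles, 5 rose, 2 fell and 1 did not pass under Thr starvation, with a median of 0.32, where 31.1% of all genes were called higher and 31.9% lower. Son, a scaffold of the speckle, had the largest increase at 0.64 (adjusted p = 9.2e-14) and Scaf1 the largest decrease at −0.53 (adjusted p = 9.1e-14). Under Cys starvation 3 rose and 2 fell, beside 17.5% and 18.8% of all genes, with the splicing coactivator Srrm1 at 0.23 (adjusted p = 4.8e-07) and Son at −0.12 (adjusted p = 0.0089). Between the starvations 4 were higher and 3 lower after Thr starvation, where 30.4% of all genes were higher and 31.6% lower. The 3 catalytic subunits of protein phosphatase 1, which removes phosphate from SR proteins, and Tnpo3, which imports phosphorylated SR proteins into the nucleus, all rose under Thr starvation, against the same 31.1% of all genes, from 0.16 for Tnpo3 to 0.49 for Ppp1cc (adjusted p = 6.8e-07 and 1.1e-15). All 4 were also higher after Thr than after Cys starvation, as were 30.4% of all genes. Under Cys starvation Tnpo3 was at −0.09 (adjusted p = 0.0026) and the other 3 did not pass, although 1 of them was called higher in 4 of 20 alternative fits (at least 10 counts in every library, only the 2 groups, and GC and length offsets without and with the replicate block). With the deposited size factors, more members were called lower under Cys starvation, 7 against 4 of the SR proteins and TRA2 factors, 4 against 2 of the speckle proteins and 2 against 1 of the DYRK and HIPK kinases. With these size factors, 36.8% of all genes called under Cys starvation were higher, against 48.2% with TMM. The median log2 fold change over all genes tested was −0.035, against 0.0068 with TMM. The shift toward lower calls was thus not limited to these lists. The count of 7 SR proteins and TRA2 factors called lower was also found with GC and length offsets, without and with the block. There 48.8% and 48.4% of all genes called were higher.

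**Figure D5:**
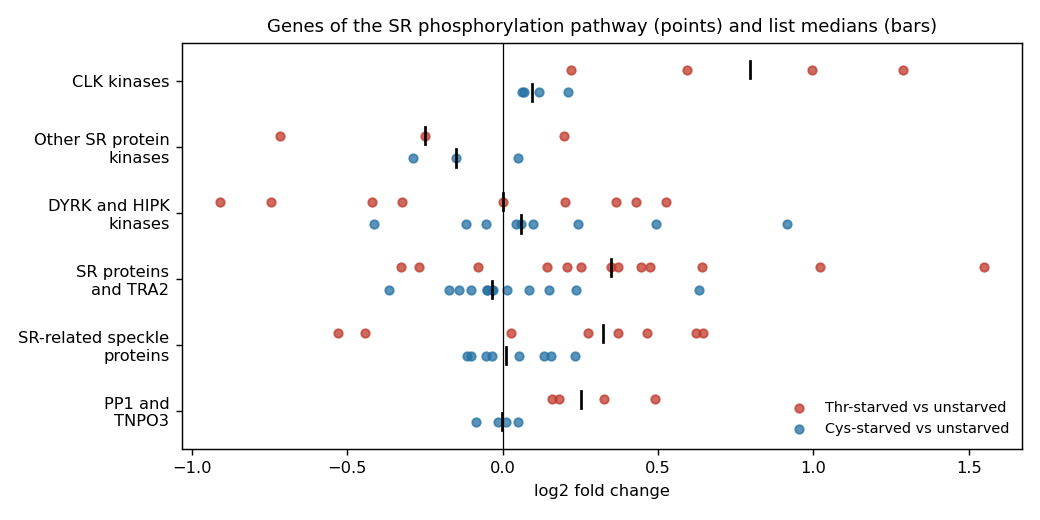
Log2 fold change against unstarved cells (horizontal axis) of each gene (points) in the CLK family and 5 other lists. The lists hold genes linked to SR proteins and the DYRK and HIPK relatives of the CLKs. Thr starvation is in red and Cys starvation in blue, with list medians as black bars. The CLK median under Thr starvation is 0.80, beside 0.35 for SR proteins and TRA2 and −0.25 for the other SR protein kinases.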

How the data were processed

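The authors sequenced poly(A) libraries from a directional kit in pairs of 43-base reads, mapped them to GRCm38 with STAR and counted per gene with HTSeq. The submitters' processing notes name STAR 2.7.4a, FastQC 0.11.7, R 4.0.3 and DESeq 1.30.1. The strand setting is not given in the sources used here. The deposited counts were not normalized. The deposited signal values are the same counts divided by 1 size factor per library by the authors, and served only for an alternative. Even numbers made up 67.8% of counts from 1 to 20, and counts were halved in an alternative. Whether both reads of a pair were counted separately is not given in the sources used here and was not tested. Counts and library totals may therefore exceed the number of read pairs.

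Groups and replicate numbers came from the sample titles. The unstarved columns carry a wild-type name and were matched to the titles of the unstarved samples. The design text of the series describes Arg and Leu starvation and GCN2-deficient cells, which were not analysed here, and it does not give the Thr and Cys media. Counts were tested in R 4.3.3 with edgeR 4.0.16 (TMM, quasi-likelihood F test, all 9 libraries in 1 model, genes with at least 1 count, Benjamini-Hochberg adjustment over 20143 genes, called at 0.05). The common biological coefficient of variation was 3.53%. Data were simulated for Thr-starved against unstarved libraries on 20143 genes, with the changed genes drawn from those averaging 5 CPM or more. Of these, 17 of 50 genes changed 1.1-fold, 46 of 50 changed 1.25-fold and all 50 changed 1.5-fold or 2-fold were recovered, with 10 false calls.

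CLK genes and lists were chosen with earlier results of these data known. Named genes were the 4 CLK genes, all SR protein kinases, per list and comparison the called members with the largest increase and decrease (mean of at least 5 CPM), and the 3 profiles nearest to each CLK gene by RMS difference of log2(CPM + 0.5), of which 1 for Clk2 is not reported here. Transcripts came from GENCODE M21. Overlaps of other named genes with neighbours were not examined. Alternatives were DESeq2 1.42.0, RLE, deposited size factors, 2 filters, thinned or halved counts, fits of 2 groups, a replicate block, GC and length offsets (loess, span 0.3) without and with the block, and each library left out. The longest coding transcript as length was added after seeing the data.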

Additional observations from a re-analysis of the deposited data

Results flagged for a closer look

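The response to Thr starvation differed from the response to Cys starvation for 3 of the 4 CLK genes, by a direct test of Thr-starved against Cys-starved libraries (edgeR). The log2 difference, Thr-starved minus Cys-starved, was 0.787 for Clk1, 0.526 for Clk3 and 1.225 for Clk4. In each case all 3 Thr-starved libraries lay above all 3 Cys-starved libraries. Over all genes tested, 62.0% were called in this comparison. Genes called higher after Thr starvation made up 30.4% of all genes tested, and those called lower 31.6%. For 32.1% of all genes the libraries did not overlap in this direction. Groups of 3 libraries were too small for the test of single outlying libraries.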

How the results depend on the processing

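Of 240 values for the 4 CLK genes in 3 comparisons and 20 alternative fits, 219 kept their direction and side of the threshold, 18 passed it where the reported value had not, 3 changed sign and 0 lost a call. The sign changes were those of Clk4 under Cys starvation, not called in any fit, at −0.017 with GC and length offsets, −0.016 with these offsets and the replicate block, and −0.0078 without unstarved replicate 2 (single libraries left out: −0.0078 to 0.10). Clk2 under Cys starvation became called with at least 10 counts in every library (0.125), halved counts (0.121) and only the 2 groups (0.123), which made 2 CLK genes called higher in place of 1, and in 3 of 9 fits without a library (those without Cys-starved, Thr-starved or unstarved replicate 3; range 0.060 to 0.16, 1 to 2 CLK genes called). Clk2 between the starvations became called with DESeq2 (0.114), RLE (0.113), deposited size factors (0.147), filterByExpr (0.111), thinned counts (0.126), only 2 groups (0.106), GC and length offsets (0.263), these with the block (0.264), and in 4 of 9 fits without a library (Cys-starved 1, Thr-starved 3, unstarved 2 or 3; range 0.073 to 0.14). The cause was not tested. The numbers of all genes called stayed within 1.5 times, from 11956 to 12692 for Thr, 6520 to 7573 for Cys and 11788 to 12618 between them.

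Levels per kb in unstarved cells depend on the length used. With the longest transcript they were 17.6, 12.9, 6.25 and 8.64 CPM for Clk1 to Clk4, and with the longest coding transcript, added after seeing the data, 47.6, 18.95, 10.3 and 15.7 CPM. Same-numbered libraries deviated from their group means with correlations of −0.244 to 0.106. With 3 libraries per group these values cannot show whether such libraries shared a culture or a preparation, and the labels give only the number. With the replicate block 12488, 7063 and 12334 genes were called for Thr, Cys and between them, and no CLK call changed. The recovery of small changes was simulated for Thr-starved against unstarved libraries only. There 34% of 1.1-fold changes were found, among genes averaging 5 CPM or more.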
